A study of Mus musculus with 2 samples.

Results

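The Mir290 to Mir295 cluster is a run of 7 miRNA hairpins on mouse chromosome 7, and it was taken from the deposited smRNA-seq table by the names Mir290, Mir291a, Mir292, Mir291b, Mir293, Mir294 and Mir295. These are 7 of the 1638 features of that table, and no other feature of the table lies within 20 kb of them. The data came from 1 library of E14 mESCs, a wild-type mouse embryonic stem cell line, and 1 library of male prospermatogonia. The latter are fetal germ cells that will found the spermatogenic line, taken from C57Bl/6J embryos at E15.5. The study's methods describe naive E14 mESCs as grown without feeder cells in 2i medium with LIF. Its list of datasets calls the smRNA-seq sample mESC rather than naive mESC. The sample labels call the germ cells PGCs and their genotype wild-type, whereas the methods describe mothers that carry an Oct-4/GFP transgene. The libraries therefore differ in strain and in growth (culture or embryo) as well as in cell type, and these cannot be told apart. With 1 library per condition there is no replicate spread and no test, and the 95% Wilson intervals given here cover counting error only.

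Hairpins of this cluster are cut from a common primary transcript, and each can give a 5p and a 3p miRNA from its arms. The cluster is known as a major miRNA source of mESCs, where pluripotency factors bind its promoter and its miRNAs repress inhibitors of the step from G1 to S phase. A miRNA finds its targets mainly through its seed, bases 2 to 8 from the 5′ end, so that miRNAs with a common seed are counted as a family. The cluster is also known from early embryos and early germ cells.

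All 7 hairpins lie on the plus strand (GRCm38), between position 3218626, where Mir290 starts, and position 3220841, where Mir295 ends. The first 4 hairpins are separated by gaps of 188 to 211 nt, a gap of 782 nt follows Mir291b, and Mir294 and Mir295 are only 48 nt apart. Hairpin length runs from 69 nt (Mir295) to 84 nt (Mir294). In GENCODE, 6 of the 7 (all but Mir290) lie within exon 10 of Nlrp12, in its untranslated part and on the opposite strand, and the same 6 lie within the RefSeq lncRNA gene D7Ertd143e. GENCODE also places Mir290b across from Mir290 and Mir292b across from Mir292, on the minus strand. Neither is a row of the table, and it is not known whether the reads were counted by strand.

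RefSeq (GRCm38.p6) gave 13 mature sequences for the 7 hairpins, 6 of 3p miRNAs and 7 of 5p miRNAs. The 3p sequences are shown because the hairpins divide by their seeds, which are in capitals. No 3p sequence was matched for Mir292.
mmu-miR-290a-3p: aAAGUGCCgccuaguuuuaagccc
mmu-miR-291a-3p: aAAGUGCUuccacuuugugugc
mmu-miR-291b-3p: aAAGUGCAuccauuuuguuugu
mmu-miR-293-3p: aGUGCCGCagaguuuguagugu
mmu-miR-294-3p: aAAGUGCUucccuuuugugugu
mmu-miR-295-3p: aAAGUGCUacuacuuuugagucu
The seed AAGUGCU is shared by Mir291a, Mir294 and Mir295, and 5 of the 1738 mature miRNAs of the RefSeq table carry it. The seeds of Mir290 and Mir291b differ from it only in the last base, and that of Mir293 is GUGCCGC, which no other mature miRNA of the table has.

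The 5p sequences are shown because they include the pair that is most alike, that of Mir291a and Mir291b, with a common run of 20 nt.
mmu-miR-290a-5p: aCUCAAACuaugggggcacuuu
mmu-miR-291a-5p: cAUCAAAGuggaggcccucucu
mmu-miR-292a-5p: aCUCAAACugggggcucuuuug
mmu-miR-291b-5p: gAUCAAAGuggaggcccucucc
mmu-miR-293-5p: aCUCAAACugugugacauuuug
mmu-miR-294-5p: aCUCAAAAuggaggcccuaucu
mmu-miR-295-5p: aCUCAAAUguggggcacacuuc
Capitals again mark bases 2 to 8. In each of the other 20 pairs of 5p sequences the longest common run was 10 nt or less, and among the 15 pairs of 3p sequences it was 11 nt or less. A short read of the 5p arm could thus fit Mir291a and Mir291b alike, and the division of 5p reads between them is uncertain. The table holds 1 value for each hairpin and none for its arms, so that a value below is for both arms together.

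The mESC library was the shallower one, with a total of 449643 reads against 2869578 for prospermatogonia, as implied by reading the deposited values as log2 RPM (reads scaled by library size). In these, 1 read is worth 2.22 RPM and 0.348 RPM. The upper limit for a hairpin without reads was set at 3 reads, equal to 6.67 RPM for the mESC library and 1.05 RPM for the other. Reads on miRNA features numbered 110455 and 155237. All 7 features of a list of male germ cell miRNAs had over 3 reads in the prospermatogonia library (15241 reads in all, against 11 in mESCs), and the Mir302 hairpins of pluripotent cells were found almost only in mESCs (240 reads against 4).

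In mESCs all 7 hairpins were well above the level of 3 reads. Mir295 led with 16131 reads, or 35875 RPM, and was second among all 1638 features, after Mir182 (30670 reads) and before Mir92-1 (5244 reads). Mir295 alone made up 14.6% of all miRNA reads (14.4% to 14.8%). Mir292 followed with 5029 reads (11184 RPM, rank 5), Mir291a with 2430 reads (5404 RPM, rank 9) and Mir293 with 2109 reads (4690.4 RPM, rank 11). Thus 4 of the 7 hairpins were among the 11 highest features of the library. Mir294 had 837 reads (1861 RPM, rank 22), Mir291b 350 reads (778 RPM, rank 34) and Mir290, the first hairpin of the cluster, 149 reads (331 RPM, rank 59). Levels of the 7 hairpins spanned 108-fold, and no 2 neighbours in this order had overlapping intervals.

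In prospermatogonia, 6 of the 7 hairpins exceeded 3 reads, and none was among the 10 highest features. Here Mir292 led with 2058 reads (717 RPM), at rank 15 between Mir30d (2179 reads) and Mir10b (1922 reads). It made up 1.33% of the miRNA reads (1.27% to 1.38%). Mir295 came next with 1624 reads (566 RPM, rank 18), then Mir291a with 681 reads (237 RPM, rank 31), Mir293 with 429 reads (149 RPM, rank 40) and Mir294 with 235 reads (81.9 RPM, rank 54). Mir290 had 19 reads (6.62 RPM, rank 144). Mir291b had 2 reads, a level of 0.697 RPM (0.191 to 2.54), which cannot be told from absence at this depth. The order of the hairpins was that of mESCs except for an exchange at the top, of Mir295 and Mir292, and an exchange at the bottom, of Mir290 and Mir291b. Neighbouring intervals did not overlap here either, and the order was the same in both libraries when reads were divided by hairpin length.

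**Figure D1:**
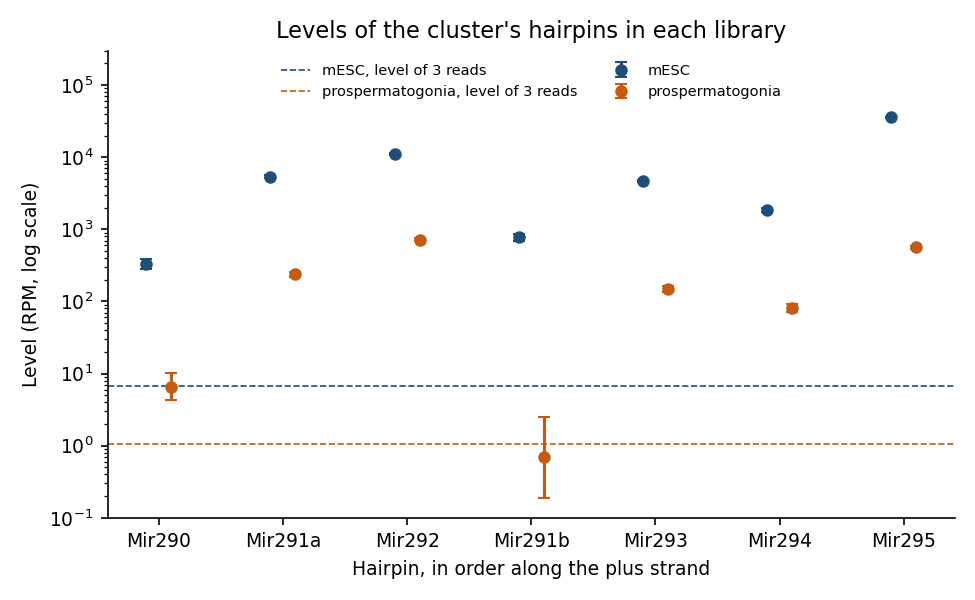
Level of each hairpin (RPM, log axis) in the mESC library (blue) and the prospermatogonia library (orange), with 95% Wilson intervals of the counts and dashed lines at the level of 3 reads. Every hairpin is higher in mESCs, the mESC library peaks at Mir295 (35875 RPM) and the prospermatogonia library at Mir292 (717 RPM), and Mir291b in prospermatogonia (0.697 RPM) lies below the level of 3 reads.

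Summed over its hairpins the cluster had 60126 RPM in mESCs and 1759 RPM in prospermatogonia, a 34.2-fold difference (33.2 to 35.2). In such bulk libraries, fewer cells with the miRNAs and less of them per cell cannot be told apart. Relative to miRNA reads alone the difference was 7.53-fold (7.30 to 7.76), since miRNA features as a whole held a smaller part of the prospermatogonia library. The cluster thus made up 24.5% of miRNA reads in the mESC library (24.2% to 24.7%) and 3.25% in the prospermatogonia library (3.16% to 3.34%). By hairpin, these shares were 4.55% and 1.33% for Mir292, 2.20% and 0.439% for Mir291a, 1.91% and 0.276% for Mir293, and 0.758% and 0.151% for Mir294. They were 14.6% and 1.05% for Mir295, so that in prospermatogonia Mir292 and Mir295 were the only hairpins above 1% of miRNA reads. The lowest shares were those of Mir290, 0.135% and 0.0122%, and of Mir291b, 0.317% and 0.00129%.

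The hairpins did not share a common fold. Mir292 differed least, 15.6-fold (14.8 to 16.4), and Mir291a and Mir294 differed by nearly the same fold, 22.8 (20.9 to 24.8) and 22.7 (19.7 to 26.3). For Mir293 the fold was 31.4 (28.3 to 34.8), for Mir290 50.05 (31.2 to 80.3) and for Mir295 63.4 (60.2 to 66.7). Mir291b had only 2 reads in prospermatogonia, and its fold is given by its interval alone, 305 to 4086.

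Among the 203 features that reached 10 RPM in either library, 80.8% had a log2 ratio of -1 or less (prospermatogonia over mESC, on the scale of log2(RPM + 1)), so that the count of 7 of 7 hairpins lower on this scale says little about the cluster by itself. The median log2 ratio was -4.96 for the 7 hairpins and -2.52 for all 203 features. With the prospermatogonia library scaled to the same number of miRNA reads, 39.9% of the features were lower, again with 7 of 7 hairpins among them, and the medians were -2.79 for the hairpins and -0.46 for all features. Mir290 and Mir291b reached 10 RPM only in mESCs, so that the filter itself fixed them as lower, and nothing is read from their part in these counts and medians. The other 5 hairpins reached 10 RPM in both libraries, as did 111 features in all. Of these 111, 82% were lower as deposited (median -2.33) and 31.5% after scaling to miRNA reads (median -0.19, a combination chosen after seeing the data). All 5 hairpins were lower on both scales, from -5.98 to -3.96 and from -3.80 to -1.78. In the order of log2 ratios of the 203 features from the lowest, Mir295 (-5.98) was at position 9 and Mir293 (-4.96) at 21. Mir291a (-4.50) and Mir294 (-4.49) were at positions 30 and 31, and Mir292 (-3.96) was at 46. Scaled to miRNA reads, the log2 ratio was -3.80 for Mir295, -2.79 for Mir293, -2.33 for Mir291a, -2.32 for Mir294 and -1.78 for Mir292. The 5 hairpins that reached 10 RPM in both libraries were thus spread over positions 9 to 46.

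**Figure D2:**
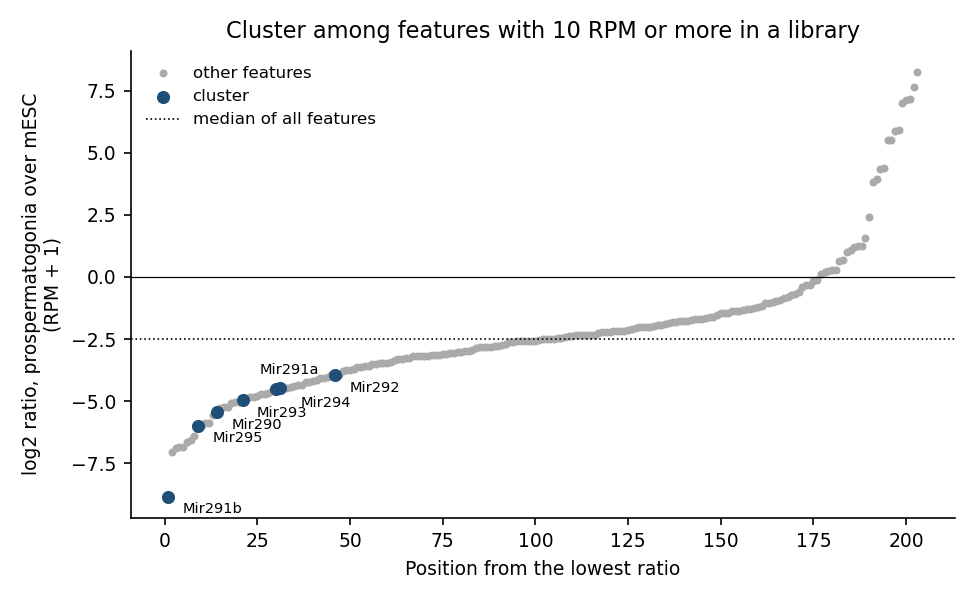
The log2 ratio of prospermatogonia over mESC, from RPM + 1, for the 203 features that reached 10 RPM in either library, ordered from the lowest. The 5 cluster hairpins (blue) that reached 10 RPM in both libraries run from -5.98 (Mir295) to -3.96 (Mir292). They lie below the median of all features (dotted line, -2.52), whereas the filter itself fixed Mir290 and Mir291b as lower.

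The mix of hairpins within the cluster does not depend on how the libraries are scaled. Mir295 held 59.7% (59.1% to 60.3%) of the cluster's 27035 mESC reads but 32.2% (30.9% to 33.5%) of its 5048 prospermatogonia reads, lower by 27.5 percentage points (the difference of prospermatogonia minus mESC was -27.5, with a Newcombe interval of -28.9 to -26.1). Mir292 held 18.6% in mESCs (18.1% to 19.1%) and 40.8% in prospermatogonia (39.4% to 42.1%), higher by 22.2 points (20.7 to 23.6). What Mir295 had less of in prospermatogonia was thus for the most part balanced by a greater share of Mir292.

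Shares of the other hairpins moved less. Mir291a held 8.99% (8.65% to 9.34%) in mESCs and 13.5% (12.6% to 14.5%) in prospermatogonia, a difference of 4.50 points (3.52 to 5.53). Mir294 went with it, at 3.10% (2.90% to 3.31%) and 4.66% (4.11% to 5.27%), a difference of 1.56 points (0.972 to 2.21). Mir293 held 7.80% (7.49% to 8.13%) and 8.50% (7.76% to 9.30%), and the interval of its difference, -0.109 to 1.56 points, includes 0. Mir290 held 0.551% (0.470% to 0.647%) and 0.376% (0.241% to 0.587%). The interval of its difference, -0.340 to 0.0512 points, also includes 0. With 19 reads in prospermatogonia, a change of this share is neither shown nor excluded. Mir291b went from 1.29% (1.17% to 1.44%) to 0.0396% (0.0109% to 0.144%). As shares add up to a fixed total, some of these comparisons depend on Mir295 being counted. Of the reads on the other 6 hairpins, Mir291a held 22.3% in mESCs and 19.9% in prospermatogonia, Mir294 7.68% and 6.86%, and Mir293 19.3% and 12.5%. All 3 were lower in prospermatogonia, but these shares are given without intervals. The small difference of Mir294 may lie within counting error. Mir292 was higher here too (46.1% and 60.1%). Mir290 held 1.37% and 0.555% of these reads.

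In all, 28.9 percentage points of the mix differed between the libraries. The mix was more even in prospermatogonia by the inverse Simpson number, the number of equally abundant hairpins that would give the same evenness, which was 2.46 in mESCs and 3.36 in prospermatogonia. The 2 highest hairpins held 78.3% and 72.9% of the reads, and the 2 lowest 1.85% and 0.416%. The span from the highest to the lowest hairpin, 108-fold in mESCs, was wider in prospermatogonia because of the 2 reads of Mir291b. There it is given by its interval alone, 282-fold to 3754-fold.

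**Figure D3:**
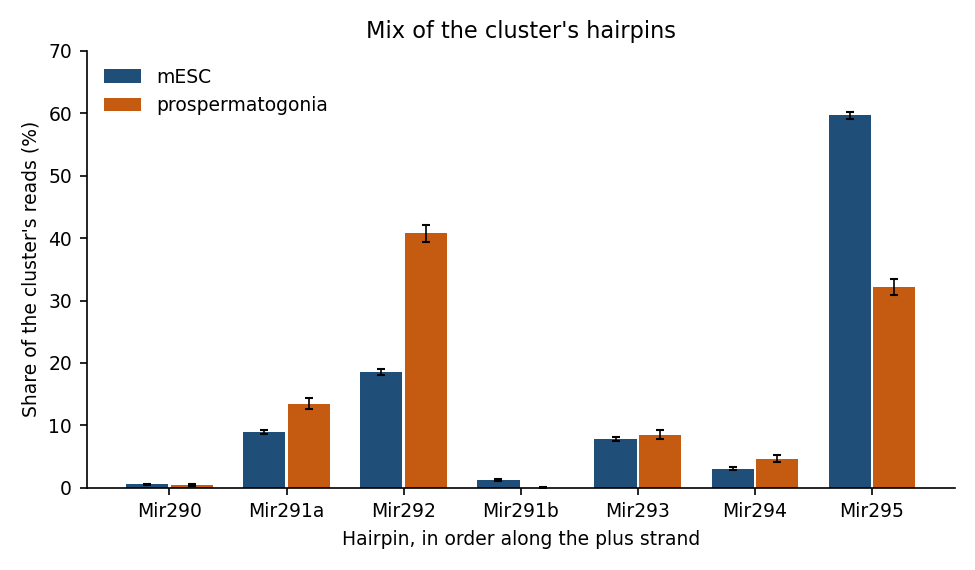
Share of the cluster's reads held by each hairpin (%), in mESCs (blue, 27035 reads) and prospermatogonia (orange, 5048 reads), with 95% Wilson intervals. Mir295 is the highest bar in mESCs (59.7%) and Mir292 in prospermatogonia (40.8%), while Mir293 is nearly level in both as long as Mir295 is part of the total.

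Ratios between hairpins of the same library show the change of mix directly. There were 3.21 reads of Mir295 for each read of Mir292 in mESCs (3.11 to 3.31) and 0.789 in prospermatogonia (0.739 to 0.842). The ratio of Mir291a to Mir294 was by contrast nearly equal in both, 2.90 (2.68 to 3.14) and 2.90 (2.50 to 3.36), and the mESC ratio was 1.00 times the prospermatogonia ratio, with a 95% interval from 0.843 to 1.19. These 2 hairpins share their 3p seed but are not next to each other in the cluster. Mir294 and Mir295, which are neighbours and have the same 3p seed, did not keep their ratio: there were 19.3 reads of Mir295 for each read of Mir294 in mESCs (18.0 to 20.7) and 6.91 in prospermatogonia (6.03 to 7.92).

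Mir291a and Mir291b, the pair with nearly the same 5p sequence, also differed in their ratio. Mir291a had 6.94 reads for each read of Mir291b in mESCs (6.21 to 7.77). In prospermatogonia, with only 2 reads of Mir291b, the ratio is given by its interval alone, 93.2 to 1244. Of the 21 pairs of hairpins, 18 had a ratio that differed between the libraries beyond the counting interval of its change (a conditional 95% interval of the odds ratio, not adjusted for the number of pairs). In the other 3 pairs, Mir290 with Mir293, Mir290 with Mir295 and Mir291a with Mir294, the interval included an equal ratio. How much the ratios vary between libraries of the same cells is not known here.

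Grouped by the 3p seeds shown above, the hairpins with AAGUGCU (Mir291a, Mir294 and Mir295) held 71.8% (71.2% to 72.3%) of the cluster's mESC reads and 50.3% (48.9% to 51.7%) of its prospermatogonia reads. Mir292 (18.6% and 40.8%) was not assigned to a 3p seed, and its reads could belong to one of the groups. Within the AAGUGCU group Mir295 had the lower share of the cluster in prospermatogonia and Mir291a and Mir294 the greater. With Mir295 left out of the total this direction turned for both, for Mir294 by an amount that may lie within counting error. By the 5p seeds, a grouping added after the values were seen, Mir290, Mir292 and Mir293 share CUCAAAC and held 27.0% (26.4% to 27.5%) in mESCs and 49.6% (48.3% to 51.0%) in prospermatogonia, most of it Mir292. Mir291a and Mir291b, which share AUCAAAG, held 10.3% (9.93% to 10.7%) and 13.5% (12.6% to 14.5%). As the arms were not counted apart, these are shares of hairpins and not of miRNAs with the seed.

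Outside the cluster, RefSeq gave a mature miRNA with a 3p seed of one of its hairpins for Mir302b, Mir302d and Mir350. All 3 are listed in the table. RefSeq gave no 3p sequence for Mir292 and may lack others, so that further hairpins with these seeds may have been missed. The 3 sequences found are shown beside those of the cluster, with bases 2 to 8 in capitals. Their seeds are the same while the full sequences differ.
mmu-miR-302b-3p: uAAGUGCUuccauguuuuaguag
mmu-miR-302d-3p: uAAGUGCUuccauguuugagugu
mmu-miR-350-5p: aAAGUGCAugcgcuuuggg
Mir302b had 44 reads in mESCs and 0 in prospermatogonia, which allows up to 1.05 RPM. Mir302d had 105 and 3 reads, and Mir350 had 7 and 9. In mESCs the cluster therefore held far more reads than these 3 hairpins, and in prospermatogonia, where the cluster had 5048 reads, Mir302b and Mir302d did not exceed 3 reads and Mir350 had 9.

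The cluster was set beside lists of 2 related groups, the Mir302 cluster (Mir302a to Mir302d with Mir367), a mark of the epiblast and of primed pluripotent cells, and the Mir17 seed family (Mir17, Mir20a, Mir20b, Mir93, Mir106a and Mir106b), whose 5p seeds hold the same core letters shifted by 1 base and which is found in many dividing cells. The mESC library held 240 reads of the 5 Mir302 cluster hairpins and the prospermatogonia library 4, with an interval of the fold from 148 to 992. None of them exceeded 3 reads in prospermatogonia and 3 of the 5 had no read there, so that no fold is set against that of the Mir290 cluster. The 6 hairpins of the Mir17 seed family differed far less, with 2236 and 2354 reads, a 6.06-fold difference (5.72 to 6.42). Relative to miRNA reads they differed by only 1.33-fold (1.26 to 1.41), at 2.02% and 1.52%. All 6 were at least 2-fold lower in prospermatogonia as deposited, where 80.8% of all features were lower, and their median log2 ratio of -2.59 was close to the -2.52 of all 203 features.

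Of the reads of these 3 lists together, the Mir290 cluster held 91.6% in mESCs (91.3% to 91.9%) and 68.2% in prospermatogonia (67.1% to 69.2%). The Mir17 seed family held 7.58% (7.28% to 7.88%) and 31.8% (30.7% to 32.9%). Mir93, the highest of that family, had 1011 reads in mESCs, less than 4 of the 7 cluster hairpins, and 1238 reads in prospermatogonia, less than Mir292 and Mir295 but more than the other 5. Mir20b (303 and 99 reads) and Mir106a (242 and 89 reads), which lie together on the X chromosome, were 19.5-fold and 17.4-fold lower in prospermatogonia, close to the fold of Mir292. Mir17, Mir20a, Mir93 and Mir106b were lower by 3.38-fold to 7.09-fold as deposited. Relative to miRNA reads the direction turned for Mir106b (0.106% in mESCs and 0.142% in prospermatogonia). For Mir17 the shares were 0.293% and 0.317%, a difference that may lie within counting error.

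**Figure D4:**
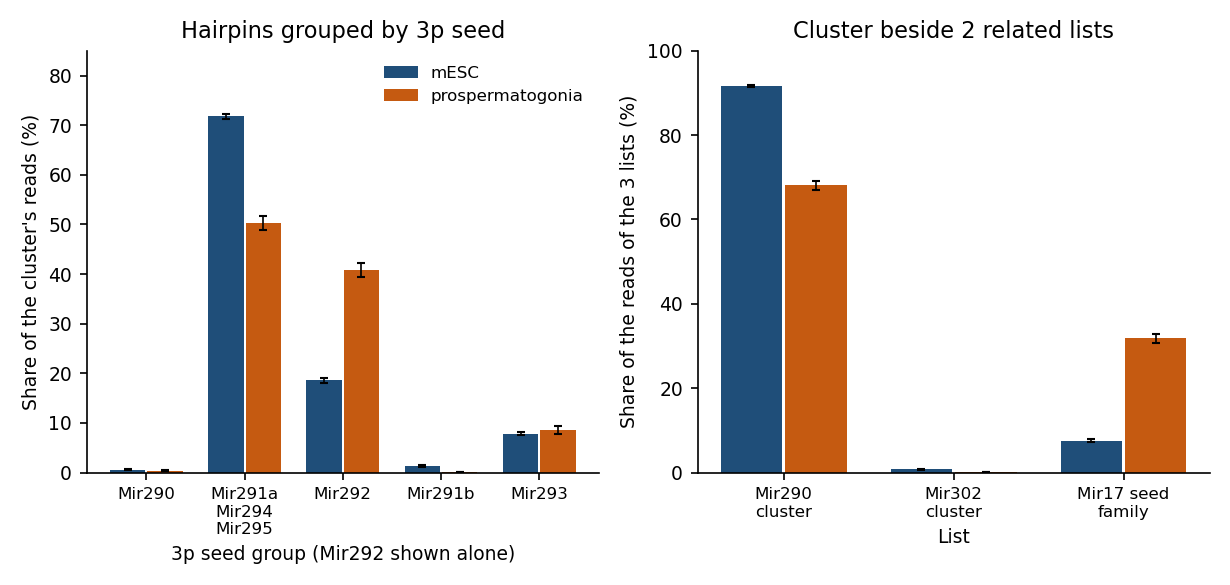
Left, share of the cluster's reads (%) by 3p seed group, in mESCs (blue) and prospermatogonia (orange). Mir292, with no matched 3p sequence, is drawn by itself and was not assigned to a seed group. Right, share (%) of the summed reads of the Mir290 cluster, the Mir302 cluster and the Mir17 seed family. Error bars are 95% Wilson intervals. The group of Mir291a, Mir294 and Mir295 is lower in prospermatogonia (71.8% against 50.3%). The Mir17 seed family has a higher share of the summed reads there (7.58% against 31.8%), but a lower share of all miRNA reads (2.02% against 1.52%).

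The log2 ratio of the summed cluster (-5.09) was compared with features outside the cluster that reached 10 RPM in either library. The nearest were Mir143 (-5.08), Mir130b (-5.05), Mir125b-1, Mir214 and Mir126 (-5.25). Likeness here is the absolute difference of log2 ratios over 2 libraries, from 0.014 for Mir143 to 0.15 for Mir126. Of these, Mir143 and Mir214 are on a list of 6 stromal miRNAs and Mir126 is a miRNA of endothelium. Mir125b-1 had 50 reads in mESCs and 7 in prospermatogonia, and Mir214 28 and 2, so that both reached 10 RPM only in mESCs. Their ratios depend on the pseudocount, and nothing is read from their nearness. The stromal list had 1441 reads in mESCs, 1393 of them on Mir143 (rank 15), and 262 in prospermatogonia, 260 of them on Mir143. Mir199a-1 and Mir199a-2 were at 0 in both libraries, Mir145 had 17 and 0 reads and Mir199b 3 and 0. Mir126 had 255 and 40 reads. The erythroid miRNAs Mir451, Mir144 and Mir486 had 2 reads together in prospermatogonia and 0 in mESCs, and Mir202, of gonadal somatic cells, had 57 and 0. The reads of the stromal list, nearly all on Mir143, were lower in prospermatogonia by 35.1-fold (30.8 to 40.0), about as much as the cluster. Whether they have any part in the difference of the cluster was not tested.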

How the data were processed

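smRNA-seq was performed on 1 mESC and 1 prospermatogonia library with a TruSeq small RNA kit and gel selection. Adapter ligation is known to favour some sequences, so that reads of different miRNAs need not reflect their molar ratio. The authors trimmed the reads (Trim Galore 0.4.1 in the submitters' processing notes), mapped them with Bowtie through piPipes, and deposited log2 values for 1638 features. Their methods name mm9 and the processing notes GRCm38. All 7 hairpins, and 1300 features in all, coincide in start and end with miRNA genes of GENCODE vM21, which uses GRCm38. The counting step, its use of strand and its treatment of reads with several matches are not given in the sources used here.

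Linear values were whole multiples of the value of 1 read (within 0.0165 reads), and features entered at 0.9 reads were set to 0. The deposited log2 values were read as log2 RPM. Library totals, RPM and folds rest on this, and shares of reads do not. With 1 library per condition no count model was fitted. Ratios are log2((RPM + 1)/(RPM + 1)) of prospermatogonia over mESC. Folds are ratios of reads per library total, with the 95% Wilson interval of the read ratio. Called features reached 10 RPM in either library and had a log2 ratio of -1 or less, or of 1 or more.

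The features named are the 7 hairpins, the Mir302 and Mir17 lists, listed hairpins with the same seed as a 3p arm of the cluster, the 5 features nearest in log2 ratio to the summed cluster, rank neighbours of the highest hairpin and the cell type lists. The members and lists were chosen with earlier results of these data known. Scripts were tested on simulated reads. Computations ran in Python 3.11.15 with scipy 1.17.1 for intervals, pandas 2.3.3 and numpy 2.4.6 for tables, and matplotlib 3.10.9 for plots.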

Additional observations from a re-analysis of the deposited data

How the results depend on the processing

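Each condition had 1 library, so that no library could be left out, and no paired analysis was possible because there are no replicates. Depth limits Mir291b and Mir290 in prospermatogonia (2 and 19 reads). Apart from the filter on low values, 4 other settings were used (2 scalings and pseudocounts of 0.1 and 5 RPM). Under each, the 5 hairpins that reached 10 RPM in both libraries kept a log2 ratio of -1 or lower. Their values ran from -5.99 to -1.59. Nothing is read here from Mir290 and Mir291b, which the filter fixed as lower. The summed cluster, at -5.09 as deposited, was at -2.91 when scaled to the reads on all listed features and at -2.72 when scaled to the median ratio. These scalings shift each ratio by 2.18 and 2.37 before the pseudocount. Features at least 2-fold lower, 164 of 203 as deposited, numbered 81 and 74 under these scalings. With 10 RPM required in both libraries they numbered 91 of 111, and Mir290 and Mir291b could not be called, which left 5 of the 7 hairpins.

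The cluster's share of miRNA reads, 24.5% in mESCs and 3.25% in prospermatogonia, was 33.9% and 4.34% without Mir182, the highest other feature. Of the library total it was 6.01% and 0.176% (chosen after seeing the data). In mESCs it was 25.3% with named features only and 24.2% with empty features summed as deposited. Without Mir295, Mir292 held 46.1% of the remaining reads in mESCs and 60.1% in prospermatogonia. The directions for Mir291a (22.3% and 19.9%) and Mir294 (7.68% and 6.86%) turned, for Mir294 by an amount that may lie within counting error. Mir293, nearly level in the whole cluster, was lower in prospermatogonia (19.3% and 12.5%). With reads per base of hairpin, chosen after seeing the data, Mir295 held 63.6% and 36.01%, and Mir292 16.7% and 38.4%. With bases 2 to 7 as the seed, which adds Mir290 and Mir291b, the AAGUGC group held 73.6% in mESCs and 50.7% in prospermatogonia. Mir292 (18.6% and 40.8%) was again not assigned. Its reads could belong to this group, and the group's difference between the libraries could then change. Here each change follows from the setting's construction.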
